A study of Mus musculus with 10 samples.

Results

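The 1180 peaks described here were regions of open chromatin that were more accessible in lung Tregs without Vps34 than in lung control Tregs, while their mean accessibility in spleen Tregs changed little with genotype. They were chosen on the measured values, from the 94486 peaks on chromosomes 1 to 19 of a table of 97385 peaks. Accessibility is given as counts scaled to a library total of 1000000 (counts per 1000000, CPM), and both lung Vps34-deficient libraries had to lie above both lung controls. Their mean also had to be at least 3 CPM and at least 1.75 times the control mean. In spleen, the ratio of the Vps34-deficient to the control mean had to lie between 0.8 and 1.25. The values in all 10 libraries were thus used for the choice, and the levels and ratios below describe the peaks and test nothing. As both lung groups were set not to overlap, the share of autosomal peaks that meet this condition alone, 23.7%, is given only for reference.

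ATAC-seq was performed on sorted CD4+Foxp3-YFP+TCRb+ Treg cells of 10-day-old mice. Control mice were Foxp3Cre with Pik3c3 +/+ or +/fl, and Vps34-deficient mice were Foxp3Cre with Pik3c3 fl/fl, so all mice carried a Cre under the control of Foxp3 and deletion was directed to Foxp3-expressing cells. The libraries were 2 lung control, 2 lung Vps34-deficient, 2 spleen control and 4 spleen Vps34-deficient. Library totals over peaks ran from 9405823 counts in lung control 1 to 22439699 in spleen control 1, and a member had a median count of 24 and 32 in lung controls, and of 58 and 46 in lung Vps34-deficient libraries. Of the 4 peaks at Pik3c3, none was a member, and the peak at its start read 52.5 to 57.0 CPM in lung controls and 55.1 to 61.8 in lung Vps34-deficient libraries. A count at a gene's start does not read the loss of a floxed exon and so does not check the genotype.

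Vps34, encoded by Pik3c3, is the class III phosphatidylinositol 3-kinase. It makes phosphatidylinositol 3-phosphate on endosomes and on forming autophagosomes, and so acts in membrane traffic and autophagy. Tregs restrain immune responses, and they are commonly divided into central Tregs, which resemble naive T cells and recirculate through lymphoid organs, and effector Tregs, which populate tissues such as the lung. ATAC-seq reads where a transposase can enter chromatin, and open sites away from gene starts are often enhancers, where factors such as the TCF/LEF, RUNX, ETS, E protein, STAT and AP-1 families bind DNA. In sorted bulk cells, a change in the share of cells in which a site is open and a change in openness per cell cannot be told apart.

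The central 300 bases of 8 members are printed to show the DNA behind the peaks the results turn on. Ints7 (chr1:191579564-191579863) is the peak with the highest lung level, Itga9 (chr9:118750140-118750439) has the clearest gap between the lung groups, and Ccr7 (chr11:99142968-99143267) is open mainly in lung. Nsg2 (chr11:32010121-32010420), Pik3r1 (chr13:101801443-101801742) and Cblb (chr16:52155252-52155551) are each the highest member of their own gene, chosen from the genes with 4 or more members. Usp6nl (chr2:6391322-6391621) and Kcnh8 (chr17:52506801-52507100) are the 2 highest members that hold a TCF/LEF match, and were picked after their values were seen. All are on the plus strand of GRCm38 from its reference sequence. Capitals mark, on either strand, the letters CTTTGAT (TCF/LEF), CAGCTG (E protein), TGTGGTT (RUNX), TGANTCA (AP-1), TTCNNNGAA (STAT) and AGGAAGTG (ETS).
Ints7: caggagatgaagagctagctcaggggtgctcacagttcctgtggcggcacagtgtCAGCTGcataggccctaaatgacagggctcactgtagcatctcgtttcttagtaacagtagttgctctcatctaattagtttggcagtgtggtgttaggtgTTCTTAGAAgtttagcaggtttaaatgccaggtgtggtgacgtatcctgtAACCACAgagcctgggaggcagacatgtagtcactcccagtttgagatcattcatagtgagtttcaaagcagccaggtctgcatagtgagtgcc
Itga9: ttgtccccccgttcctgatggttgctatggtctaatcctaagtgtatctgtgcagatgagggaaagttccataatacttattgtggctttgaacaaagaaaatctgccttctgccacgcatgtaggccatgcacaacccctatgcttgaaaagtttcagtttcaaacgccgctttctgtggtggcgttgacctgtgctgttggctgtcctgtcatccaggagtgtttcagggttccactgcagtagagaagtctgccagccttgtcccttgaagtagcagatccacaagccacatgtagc
Ccr7: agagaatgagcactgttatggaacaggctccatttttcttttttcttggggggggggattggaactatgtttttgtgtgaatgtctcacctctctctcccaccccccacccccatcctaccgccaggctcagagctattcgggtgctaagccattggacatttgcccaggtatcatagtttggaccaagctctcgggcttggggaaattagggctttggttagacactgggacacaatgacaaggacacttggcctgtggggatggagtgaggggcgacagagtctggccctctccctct
Nsg2: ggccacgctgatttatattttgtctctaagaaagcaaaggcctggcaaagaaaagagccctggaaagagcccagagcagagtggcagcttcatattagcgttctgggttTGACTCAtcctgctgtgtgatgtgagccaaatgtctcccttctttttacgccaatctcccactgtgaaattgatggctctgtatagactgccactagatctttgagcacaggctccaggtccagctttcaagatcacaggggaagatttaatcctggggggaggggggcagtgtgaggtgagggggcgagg
Pik3r1: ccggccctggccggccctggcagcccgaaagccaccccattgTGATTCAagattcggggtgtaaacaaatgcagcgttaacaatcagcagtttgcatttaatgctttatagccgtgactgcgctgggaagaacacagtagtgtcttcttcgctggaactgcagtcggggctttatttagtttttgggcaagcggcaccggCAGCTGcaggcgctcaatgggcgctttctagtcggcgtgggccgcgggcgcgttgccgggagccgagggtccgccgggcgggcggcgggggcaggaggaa
Cblb: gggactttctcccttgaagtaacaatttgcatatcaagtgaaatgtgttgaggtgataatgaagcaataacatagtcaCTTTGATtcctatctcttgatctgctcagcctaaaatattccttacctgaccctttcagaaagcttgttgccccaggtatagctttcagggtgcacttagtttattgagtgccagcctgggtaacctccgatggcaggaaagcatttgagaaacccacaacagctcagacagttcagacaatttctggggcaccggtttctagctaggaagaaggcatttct
Usp6nl: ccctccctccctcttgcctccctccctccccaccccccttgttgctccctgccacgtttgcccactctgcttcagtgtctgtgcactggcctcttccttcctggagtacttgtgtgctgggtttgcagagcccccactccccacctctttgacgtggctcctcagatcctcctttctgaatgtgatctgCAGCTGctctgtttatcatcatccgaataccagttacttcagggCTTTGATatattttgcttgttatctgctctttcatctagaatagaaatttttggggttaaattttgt
Kcnh8: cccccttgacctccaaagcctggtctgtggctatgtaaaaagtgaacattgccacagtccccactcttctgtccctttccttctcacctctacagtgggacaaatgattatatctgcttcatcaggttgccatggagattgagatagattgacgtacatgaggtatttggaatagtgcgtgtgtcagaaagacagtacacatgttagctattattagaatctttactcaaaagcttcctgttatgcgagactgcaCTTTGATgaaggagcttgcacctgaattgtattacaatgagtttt
The Itga9 and Ccr7 windows hold none of the 6 motifs. The Ints7 window holds 1 match each for E protein, RUNX and STAT, and the Pik3r1 window 1 each for AP-1 and E protein. The Nsg2 window has 1 AP-1 match, the Cblb and Kcnh8 windows have 1 TCF/LEF match each, and the Usp6nl window has 1 TCF/LEF and 1 E protein match. A match is a description of letters and not a bound site.

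Across the members, the lung controls stood lowest, and lung Tregs without Vps34 stood slightly above spleen Tregs of either genotype. The median CPM over the 1180 peaks was 2.55 and 2.26 in lung controls and 4.71 and 4.87 in lung Vps34-deficient libraries. In spleen it was 3.92 and 3.72 in the controls and 4.03, 4.04, 4.24 and 4.02 in the Vps34-deficient libraries. Spleen Tregs of both genotypes thus lay between the lung groups and above the lung controls in each library, whereas the medians over all autosomal peaks ran only from 3.17 to 3.41 CPM. The rule set the lung gap and the spleen ratio, but not the spleen level.

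**Figure D1:**
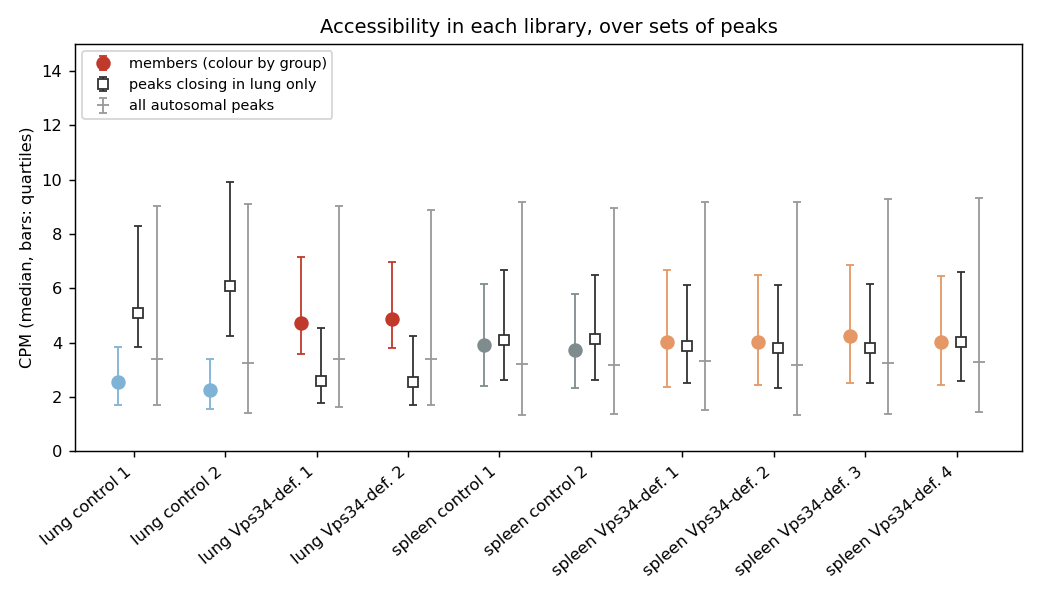
Median CPM (points) with quartiles (bars) in each library, over the 1180 members (circles, coloured by group), the 1347 autosomal peaks that close in lung only by the mirror of the rule (squares) and all 94486 autosomal peaks (grey ticks). The members' medians are 2.55 and 2.26 in lung controls and 3.72 to 4.87 in the other 8 libraries.

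Peak by peak, all 6 spleen libraries lay above both lung controls at 686 members (58.1%), against 18.1% of all autosomal peaks. All 6 lay below both lung controls at 70 members (5.93%), against 15.8%. All 6 spleen libraries lay below both lung Vps34-deficient libraries at 411 members (34.8%, against 18.3% of autosomal peaks) and above both at 70 (5.93%, against 17.3%). Taking the spleen level as the mean of its 2 genotype means, it lay between the 2 lung means at 623 members (52.8%, against 29.0% of all autosomal peaks), below both at 220 (18.6%, against 30.1%) and above both at 337 (28.6%, against 40.9%). The median ratio of the spleen mean to the lung control mean was 1.67 (1.03 over all autosomal peaks), and that of the lung Vps34-deficient mean to the spleen mean was 1.24 (0.94). A choice of peaks with a low lung control mean itself places other groups above it, so these counts describe the members and are not evidence about tissue. The 1347 peaks that closed in lung only, chosen by the same rule with the genotypes exchanged, had their spleen medians between 3.79 and 4.13 CPM, again between the lung medians of 5.10 and 6.07 in controls and 2.60 and 2.54 without Vps34.

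**Figure D2:**
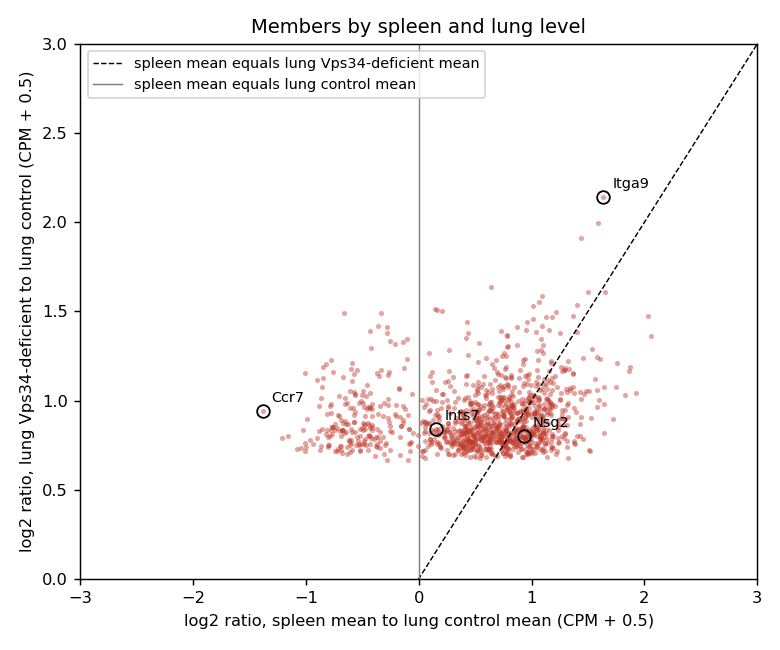
Each point is 1 of the 1180 members, with the log2 ratio of the spleen mean to the lung control mean on the x axis and of the lung Vps34-deficient mean to the lung control mean on the y axis (0.5 CPM added to each). Most points lie to the right of the vertical line, with a spleen mean above that of the lung controls, and the circled Ccr7 peak lies far to the left.

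The size of the lung gap was modest at most members. The lung ratio, the Vps34-deficient mean over the control mean, had quartiles of 1.84 and 2.21 and a median of 1.97, and it reached 2 at 543 members, 3 at 46 and 9.24 at the highest. The lung Vps34-deficient mean was under 5 CPM at 655 members (55.5%) and 20 CPM or more at 25. The spleen ratio had a median of 1.09 and was above 1 at 890 members (75.4%), against 56.0% of all autosomal peaks, so within the permitted band most spleen ratios lay on the same side as those in lung. The spleen genotypes follow the labels, with 2 control and 4 Vps34-deficient libraries, while the study's text gives 4 and 2, and this bears on the direction of the spleen ratio. With the spleen genotypes exchanged, most spleen ratios would lie on the side opposite to lung. The 91 and 12 members counted next would then change places. All 4 spleen Vps34-deficient libraries lay above both spleen controls at 91 members (7.71%), against 14.9% of all autosomal peaks and 3.61% of those that met the spleen band. They lay below both at 12 members (1.02%), against 11.3% and 5.92%. Of the lung controls, replicate 1 was the higher at 692 members (58.6%, against 52.2% of all autosomal peaks).

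In the edgeR quasi-likelihood fit over all libraries, 321 of the 1180 members were called higher in lung (adjusted p under 0.05 after Benjamini-Hochberg correction, log2 fold change over 0.5), against 1.22% of the 97109 peaks tested. The rule used this contrast, so nothing is read from that count. For the difference between the lung and spleen effects, edgeR called no member and 0% of all peaks, with a smallest adjusted p of 0.221 among members, and DESeq2 also called no member (it called 24 of all peaks). At an unadjusted p below 0.05 this difference was higher in lung at 520 members, against 2.24% of peaks tested, again on values the rule used. The words "in lung only" therefore name the rule, and no single member was shown to differ in its genotype effect between the tissues.

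At the ends of the rule, neighbouring peaks were nearly equal. The 3 members with the smallest lung ratio had 1.75035, 1.75043 and 1.75054, and the 3 peaks just short of it 1.7496, 1.74951 and 1.74932. The 3 members with the lowest lung Vps34-deficient mean all had 3.0002 CPM, and the 3 highest peaks left out had 2.99285. Spleen ratios nearest the lower end were 0.801, 0.802 and 0.803 inside and 0.7995, 0.7992 and 0.7985 outside, and nearest the upper end 1.24997, 1.24986 and 1.24981 inside and 1.25039, 1.25096 and 1.25115 outside. The lung ratio alone left out 6615 peaks that met every other condition, and the upper spleen end alone left out 1904.

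The members were mostly distal. Within 1 kb of a protein-coding transcript start lay 67 members (5.68%), against 16.0% of all autosomal peaks and 10.8% of the peaks closing in lung only. The median distance to such a start was 31.2 kb in members, 20.5 kb in all autosomal peaks and 18.4 kb in the closing peaks. The other opening sets were distal too, so this position was not particular to the members. The 143 peaks that met the lung conditions in both tissues had 4.20% within 1 kb and a median of 37.0 kb. The 295 that opened in spleen only, by the rule with the tissues exchanged, had 4.75% and 37.4 kb. By position, 616 members were intronic, 413 intergenic, 81 in noncoding genes, 40 in untranslated exons and 30 in coding exons. Members were somewhat wider (median 370 bp against 328 bp) and lower in GC (47.3% against 48.7%) than all autosomal peaks. Of the 51201 autosomal peaks that met the 3 CPM floor in lung Tregs without Vps34, which were stronger (medians of 8.12 and 8.04 CPM in these libraries) and wider (457 bp) than the members, 25.1% lay within 1 kb of a start.

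Within the members, those with the lowest spleen level stood apart in sequence and position. The 220 members whose spleen mean was below the lung control mean had a median width of 211 bp, a GC content of 43.7% and a median distance of 48.5 kb to a start, and repeats covered 21.1% of their central 300 bases on average. The 350 members with a spleen mean over 2 times the lung control mean were 428 bp wide, had 47.8% GC, lay 32.8 kb from a start and had 15.1% repeats. Between them, the 254 members at 1 to 1.5 times and the 356 at 1.5 to 2 times were 376 and 390 bp wide, both had 48.3% GC, and lay 28.9 and 27.4 kb from a start. In the order of the spleen level, the 4 classes held the TCF/LEF letters at 5.91%, 10.2%, 8.43% and 7.43% and the E protein letters at 14.1%, 25.6%, 21.6% and 22.0%, so neither share rose steadily. The median spleen level of the lowest class was 1.32 CPM.

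Of 22 short motifs searched on both strands in the central 300 bases, several were at lower or higher shares in members than in all autosomal peaks. The largest difference in percentage points was at the SP/KLF letters GGGCGG, in 10.6% of members and 18.3% of all autosomal peaks (8.54% and 10.1% outside promoters), and the ETS letters CCGGAAG were in 1.95% and 4.48%. The AP-1 letters TGANTCA, bound by FOS, JUN and BATF family factors, were in 124 members (10.5%), in 13.0% of all autosomal peaks and in 26.5% of the peaks closing in lung only. The nuclear receptor element AGGTCA, which ROR factors bind, was in 14.2% of members, 16.8% of all and 22.4% of closing peaks. The RUNX letters TGTGGTT were in members about as often as in all peaks, at 10.9% and 10.8%, and in 17.4% of closing peaks. In the other direction, the TCF/LEF letters CTTTGAT were in 95 members (8.05%), 5.75% of all and 4.75% of closing peaks, and the E protein letters CAGCTG in 250 members (21.2%), 17.9% and 18.2%. The STAT letters TTCNNNGAA were in 11.8% of members against 9.30% of all peaks, and the IRF letters GAAANNGAA in 12.6% against 11.2%. Of the 143 peaks meeting the lung conditions in both tissues, 10.5% held TCF/LEF, 21.7% E protein, 11.2% STAT and 20.98% IRF letters. In the peaks that opened in spleen only, these shares were 5.08%, 15.3%, 10.2% and 14.9%. The higher TCF/LEF, E protein and IRF shares were thus not particular to the members. Leaving out promoter peaks, AP-1 was in 10.6% of members and 14.5% of all, and TCF/LEF in 8.18% and 6.45%. Members with and without TCF/LEF had like lung ratios (medians 1.95 and 1.97), as had those with and without AP-1 (1.99 and 1.97). These shares were not tested, and a missing match says only that these letters were not in the window.

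**Figure D3:**
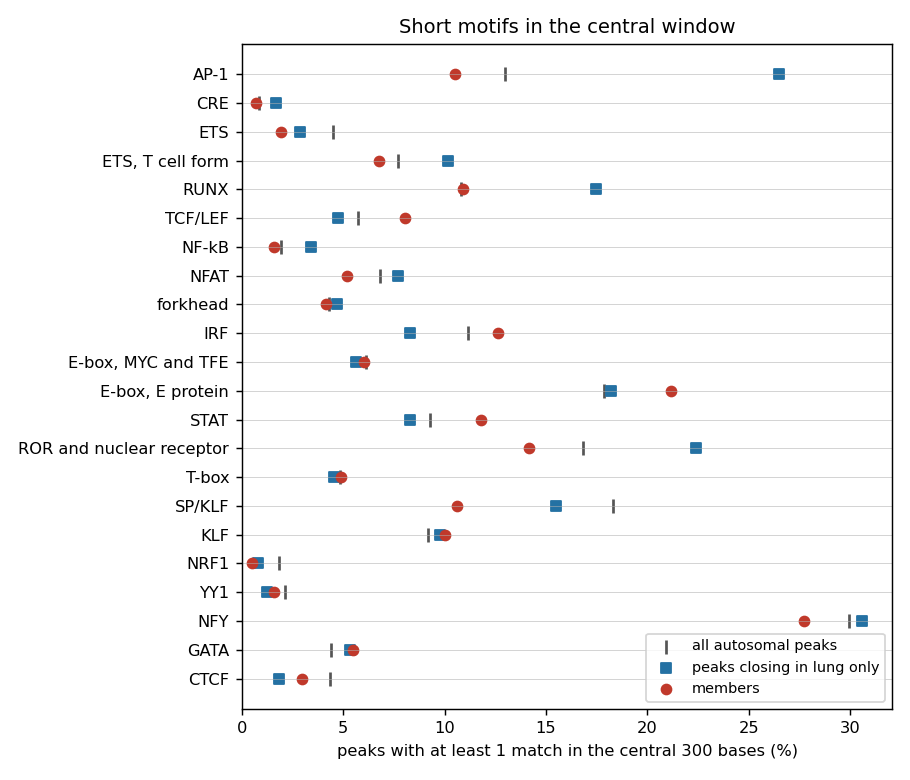
Share of peaks with at least 1 match to each of 22 short motifs in the central 300 bases, in members (circles), peaks closing in lung only (squares) and all autosomal peaks (ticks). The AP-1 share is 10.5% in members and 26.5% in closing peaks, and the TCF/LEF share 8.05% and 4.75%.

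The most accessible members were strong sites in every group. CPM here is per peak and is not scaled for width. The highest was an intronic peak of Ints7 (chr1:191579484-191579943, GRCm38), a subunit of the Integrator complex that processes small nuclear RNAs. It read 26.8 and 29.1 CPM in lung controls, 50.7 and 50.3 in lung Vps34-deficient libraries, 28.2 and 28.8 in spleen controls and 30.2, 31.8, 35.9 and 37.0 in spleen Vps34-deficient libraries. The 2 lung Vps34-deficient libraries lay above the other 8, and their mean was 1.81 times that of the lung controls. A peak 37.2 kb from the start of Anxa3 (chr5:96878754-96879572), an annexin, read 27.9 and 23.3 CPM in lung controls and 45.8 and 45.9 without Vps34, against 29.8 to 38.8 in spleen. At the Cers6 intron (chr2:68959519-68960494), in a ceramide synthase gene, the lung values were 23.4 and 21.3 in controls and 39.6 and 39.2 without Vps34, and spleen ran from 24.9 to 29.6. At these 3 peaks lung without Vps34 exceeded every spleen library.

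At 2 others of the 8 highest, lung Tregs without Vps34 read within the spleen range. The intron of St6gal1 (chr16:23228450-23228956), a sialyltransferase, read 23.0 and 23.3 CPM in lung controls and 42.2 and 39.4 without Vps34, with 38.5 and 40.6 in spleen controls and 42.8, 42.3, 46.4 and 44.8 in spleen Vps34-deficient libraries. The Trak1 peak (chr9:121454524-121455649), in an untranslated exon of an adaptor for mitochondrial transport, read 24.7 and 18.9 in lung controls, 40.6 and 40.9 without Vps34 and 35.3 to 49.4 in spleen. At both, the lung controls were the 2 lowest libraries of the 10. At the remaining 3, both lung Vps34-deficient libraries read above all 6 spleen libraries. The intron of Ss18 (chr18:14666944-14667575), a BAF chromatin remodelling subunit, read 21.3 and 21.3 in lung controls, 39.1 and 35.8 without Vps34 and 29.1 to 35.6 in spleen. A Rere intron (chr4:150517228-150517873), in a corepressor gene, read 18.3 and 19.6 CPM in lung controls, 37.2 and 34.5 without Vps34 and 19.3 to 29.2 in spleen. A peak 266 kb from the start of Atp10a (chr7:58392285-58393189), a lipid flippase, read 23.8 and 18.1 CPM in lung controls, 35.1 and 43.8 without Vps34 and 24.0 to 31.1 in spleen. Over the 8 peaks the lung ratio ran from 1.76 to 1.89.

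The clearest gaps were at weak sites. An intronic peak of Itga9 (chr9:118750144-118750436), an integrin alpha subunit, read 0.425 and 0.282 CPM in lung controls, from 4 counts in each, and 3.57 and 2.96 without Vps34. Spleen controls read 2.23 and 1.65 there and spleen Vps34-deficient libraries 1.95, 2.32, 2.89 and 2.30, so the lung controls were lowest by far. A peak 45.1 kb from the start of Rtn4r (chr16:18172569-18172869), the Nogo receptor, read 0.213 and 0.706 in lung controls and 3.25 and 2.96 without Vps34, with spleen at 1.26 to 2.85. Peaks near Vps4b, an ATPase of the ESCRT pathway, and in Ldlrad3 had the same lung values, 0.638 and 0.988 in controls and 3.41 and 3.60 without Vps34, and spleen ran from 2.94 to 4.16 and from 3.12 to 5.14. At the start of Ly6k, a GPI-anchored protein, the lung values were 0.638 and 0.847 and, without Vps34, 2.92 and 3.81, and spleen stayed low at 0.734 to 2.35. The other 3 of the 8 largest gaps, in introns of Afdn and Arhgap20 and 157 kb from the start of Serpine2, had lung ratios of 3.72, 3.42 and 3.49.

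**Figure D4:**
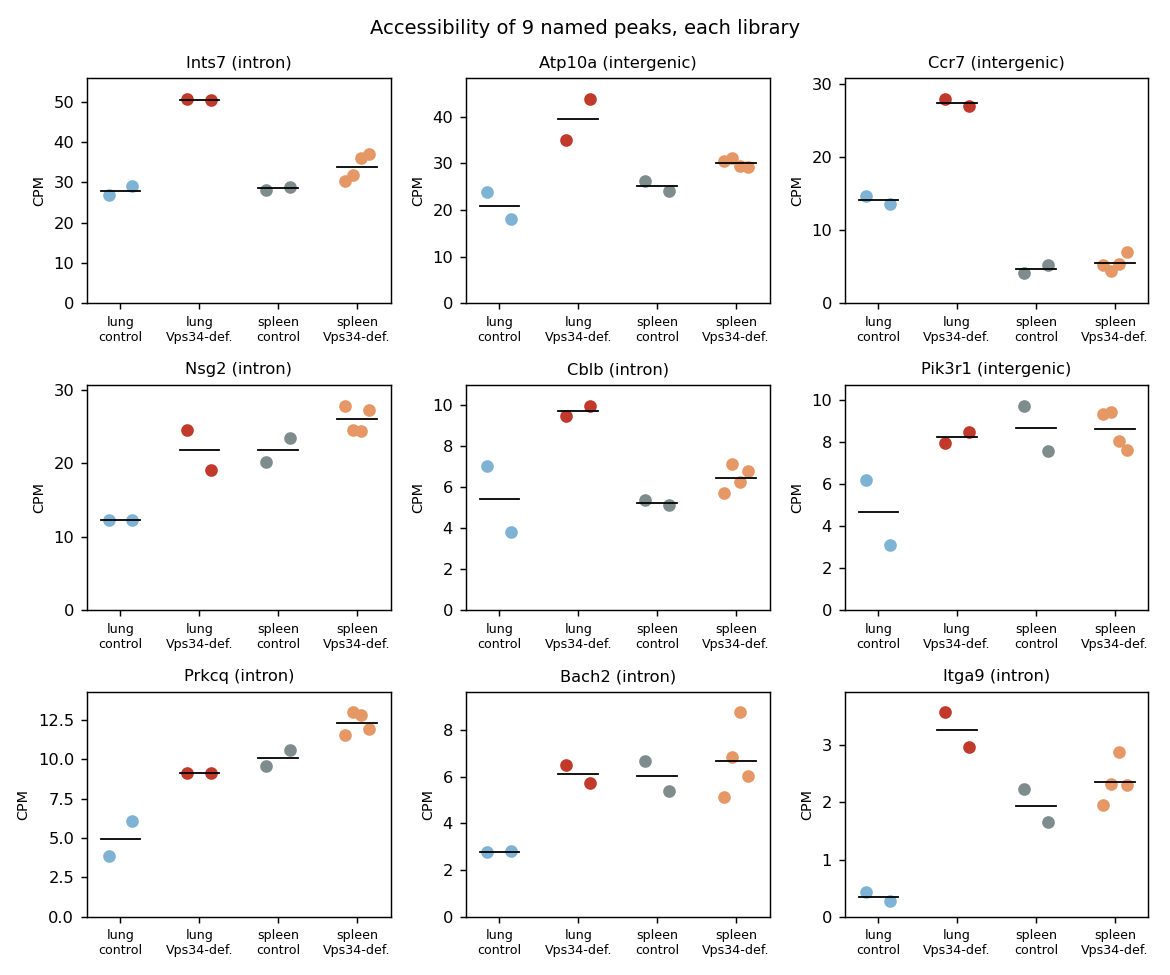
CPM of 9 named members in each library (points) with group means (lines), each panel with its own axis from 0. The lung controls are the lowest 2 libraries at Atp10a, Nsg2, Pik3r1, Prkcq, Bach2 and Itga9, while at Ccr7 both lung groups lie above all 6 spleen libraries.

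Members were spread over many genes. They had 1009 different nearest genes, 892 of them nearest to 1 member and 37 to 3 or more, and 186 members had another member within 50 kb. Pik3r1, the p85 alpha regulatory subunit of class I phosphatidylinositol 3-kinase, was nearest to the most, with 7 members of its 74 autosomal peaks. The highest of them (chr13:101801276-101801910), 33.4 kb upstream, read 6.17 and 3.10 CPM in lung controls, 7.96 and 8.47 without Vps34, 9.71 and 7.58 in spleen controls and 9.32, 9.42, 8.03 and 7.61 in spleen Vps34-deficient libraries. A peak 7.16 kb inside the gene read 1.49 and 1.69 in lung controls, 4.22 and 3.39 without Vps34 and 3.72 to 5.10 in spleen. Both lung controls were below all spleen libraries at these sites. The other 5 Pik3r1 members had lung ratios of 2.13, 3.28, 2.53, 1.92 and 2.25, and lay up to 376 kb from the start. Libraries of 1 group differed widely at some of them. At the ratio of 3.28 the lung controls read 0.638 and 1.55 CPM, and at 2.53 the lung Vps34-deficient libraries read 2.11 and 4.87. The Pik3r1 members are neighbours and are not replicates of one another.

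Nsg2, an endosomal trafficking protein, had 4 members among its 19 nearest peaks. The strongest, in an intron (chr11:32009740-32010801), read 12.3 and 12.3 CPM in lung controls, 24.5 and 19.1 without Vps34, 20.2 and 23.5 in spleen controls and 27.9, 24.5, 24.4 and 27.3 in spleen Vps34-deficient libraries, a lung ratio of 1.77. Ryr2, a calcium release channel, had 4 members in its introns. The 2 strongest lay within 2 kb of each other and differed in spleen. One (chr13:11957779-11958148) read 10.6 and 11.1 CPM in lung controls, 20.1 and 18.9 without Vps34 and 9.36 to 13.0 in spleen. The other (chr13:11959495-11960228) read 11.1 and 11.4 CPM in lung controls, 19.7 and 20.7 without Vps34 and 20.8 to 29.3 in spleen. Tusc3, of the oligosaccharyltransferase complex, had 4 intronic members, and the highest (chr8:39011006-39011409) read 8.72 and 5.93 CPM in lung controls, 12.0 and 14.6 without Vps34 and 14.8 to 19.1 in spleen. Dyrk2, a protein kinase, had 4 distal members, and the highest (chr10:119011016-119011388) read 5.95 and 4.37 CPM in lung controls, 8.28 and 11.2 without Vps34 and 6.32 to 8.12 in spleen.

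Cblb, an E3 ubiquitin ligase that dampens T cell receptor signals, had 4 members, all intronic. The highest (chr16:52155054-52155749) read 7.02 and 3.81 CPM in lung controls, 9.42 and 9.95 without Vps34, 5.35 and 5.10 in spleen controls and 5.70, 7.09, 6.23 and 6.75 in spleen Vps34-deficient libraries, with the lung controls spread on both sides of the spleen controls. A second (chr16:52093365-52093639) read 4.89 and 2.96 CPM in lung controls, 8.12 and 6.14 without Vps34 and 6.85 to 10.2 in spleen, with its lung controls below every spleen library. At the other two the spleen level was low. One (chr16:52116721-52117189) read 2.34 and 1.41 CPM in lung controls, 2.84 and 4.02 without Vps34 and 0.144 to 0.974 in spleen, and one (chr16:52138001-52138231) read 1.70 and 2.40 CPM in lung controls, 3.57 and 5.29 without Vps34 and 0.964 to 1.83 in spleen. The 4 sites of this gene thus did not share a spleen pattern.

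Around the members, other peaks leaned the same way. The nearest autosomal peak outside both lung sets lay within 10 kb of 919 members. Its median log2 lung ratio was 0.21, and it was above 0 at 69.6% of them, against a median of 0.03 and 53.3% of all autosomal peaks. Near the peaks closing in lung only the median was -0.20 and 33.1% were above 0. By chromosome, members made up 0.795% of the autosomal peaks of chromosome 8 at the least and 1.82% of those of chromosome 16 at the most.

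For 12 lists of genes, chosen with earlier results of these data known, members in or within 10 kb of listed genes were counted. They are set beside the 1.25% of all autosomal peaks that were members, and the lists are not independent of the data. The central Treg and quiescence list of 24 genes held 12 members among 516 peaks (2.33%), at Nsg2 (4), Bach2 (2), Foxp1 (2), Ccr7, Lef1, Bcl2 and Ssbp2. Nsg2 gave its 4 from only 15 of these peaks. The effector and tissue Treg list of 29 genes held 1 member among 318 peaks (0.314%), near Gata3, and 19 of the peaks closing in lung only (5.97%). The T cell receptor signalling list held 8 members among 469 peaks (1.71%), at Cblb, Prkcq, Ptprc and Fyn, and the TGF-beta and Wnt list 7 among 282 (2.48%), of which 3 were at Tgfbr3. The list of chromatin regulators held 5 among 341 (1.47%), that of Vps34 complexes and autophagy 3 among 232 (1.29%), and those of the cell cycle and of AP-1, BACH and NFAT factors 2 each among 198 and 260. The cytokine list held 1 among 90 (1.11%) and the list of chemokine receptors and migration 1 among 350 (0.286%). The interferon list (122 peaks) and the endosome and lysosome list (171 peaks) held none. The chemokine receptor member at Ccr7 and the 2 members at Bach2 in the AP-1, BACH and NFAT list were also counted in the central Treg list. Several of these counts moved with the window. Within 50 kb the endosome and lysosome list held 5 members among 357 peaks (1.40%), the interferon list 3 among 313 (0.958%), the effector and tissue Treg list 4 among 569 (0.703%), the T cell receptor list 9 among 693 (1.30%) and the cell cycle list 7 among 440 (1.59%), while the central Treg list held 18 among 791 (2.28%). Shares were not tested, and several rest on the many peaks of 1 gene.

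**Figure D5:**
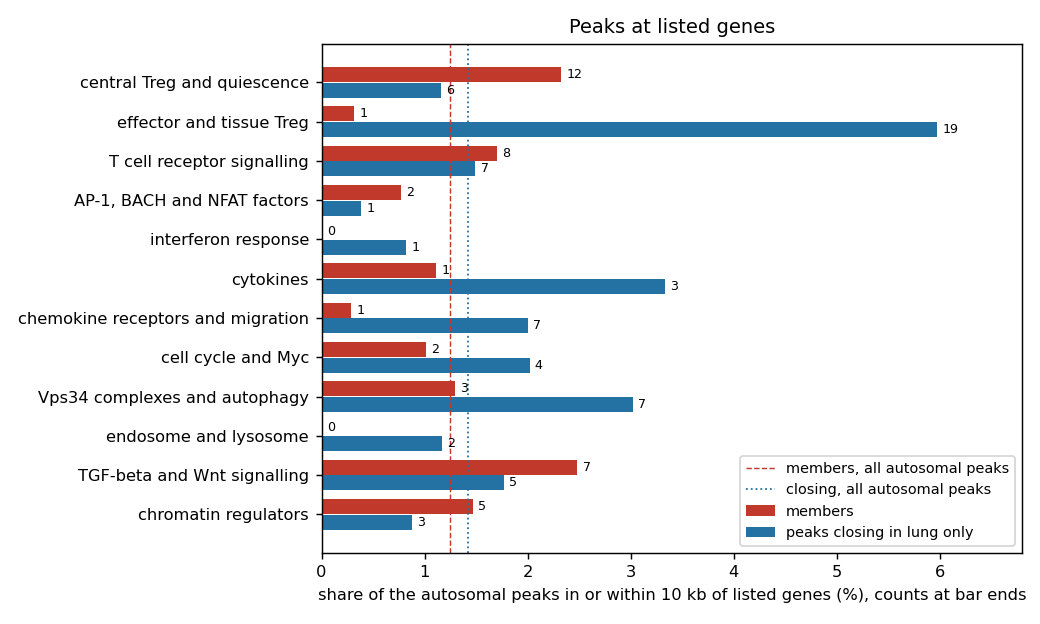
Share of the autosomal peaks in or within 10 kb of listed genes that were members (red) or peaks closing in lung only (blue), with counts at the bar ends and dashed and dotted lines at the shares over all autosomal peaks. The effector and tissue Treg list holds 1 member and 19 closing peaks, and the central Treg list 12 and 6.

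Among the central Treg genes, Ccr7, the receptor that guides cells into lymph nodes, had 1 member (chr11:99142577-99143658), 12.0 kb from its start. It read 14.7 and 13.5 CPM in lung controls, 28.0 and 27.0 without Vps34, 4.19 and 5.23 in spleen controls and 5.22, 4.34, 5.42 and 6.96 in spleen Vps34-deficient libraries. It was among the 70 members at which both lung controls, too, lay above all 6 spleen libraries. Bach2, a repressor of effector programmes, had 2 intronic members. The first (chr4:32280457-32280852) read 2.76 and 2.82 CPM in lung controls, 6.50 and 5.72 without Vps34, 6.68 and 5.37 in spleen controls and 5.15, 6.85, 8.76 and 6.03 in spleen Vps34-deficient libraries, so that lung without Vps34 lay within the spleen range. The second (chr4:32413087-32413401) read 1.06 and 2.12 CPM in lung controls, 3.74 and 2.75 without Vps34 and 1.46 to 4.16 in spleen. The member near Gata3, a factor of type 2 and tissue Treg programmes, was in an intron of the transcript 9230102O04Rik and read 0.851 and 3.10 CPM in lung controls, 3.57 and 3.81 without Vps34 and 2.58 to 4.28 in spleen, with lung control 2 near the Vps34-deficient libraries.

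Of the signalling genes, Prkcq, the kinase PKC theta of the T cell receptor pathway, had a member 1.70 kb from its start (chr2:11173545-11174077) that read 3.83 and 6.07 CPM in lung controls, 9.10 and 9.10 without Vps34 and 9.54 to 13.0 in spleen. Smad4, the common mediator of TGF-beta signals, had an intronic member (chr18:73642976-73643525) with 8.93 and 8.89 in lung controls and 17.5 and 17.6 without Vps34, against 8.29 to 12.5 in spleen. Here the lung controls stood within the spleen range and lung without Vps34 above it. The peak assigned to Ctnnb1, beta-catenin, lies in an intron of the neighbour Ulk4 (chr9:120961415-120961942) and read 5.53 and 5.79 CPM in lung controls, 11.2 and 8.89 without Vps34 and 6.48 to 10.3 in spleen. The intronic member of Tnfsf8, the CD30 ligand (chr4:63859800-63860233), read 5.53 and 3.95 CPM in lung controls, 10.6 and 9.10 without Vps34 and 4.82 to 8.26 in spleen.

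Members at genes of the cell cycle, chromatin and autophagy were weak to moderate sites. The peak near Ccne1, cyclin E1 (chr7:38088517-38088814), read 6.17 and 5.01 CPM in lung controls, 8.93 and 11.6 without Vps34 and 9.37 to 12.8 in spleen. That near Ccnd1, cyclin D1 (chr7:144941419-144941760), read 2.55 and 2.68 CPM in lung controls, 5.20 and 4.45 without Vps34 and 2.34 to 4.65 in spleen. Hdac7 and Hdac9 encode histone deacetylases. The Hdac7 intron (chr15:97841985-97842778) read 2.34 and 5.64 CPM in lung controls, 7.80 and 8.04 without Vps34 and 8.47 to 14.1 in spleen, and the Hdac9 intron (chr12:34559653-34560093) read 3.40 and 3.10 CPM in lung controls, 7.63 and 6.14 without Vps34 and 4.88 to 7.94 in spleen. Atg10, the E2-like enzyme that joins Atg12 to Atg5, read 4.04 and 2.26 CPM in lung controls, 7.15 and 6.35 without Vps34 and 3.03 to 6.68 in spleen at its highest member (chr13:91169629-91170346). The member close to Atg12, in an intron of Ap3s1 (chr18:46747777-46748042), read 2.98 and 2.26 CPM in lung controls, 6.01 and 5.50 without Vps34 and 4.41 to 6.41 in spleen. Of the 2 members shown for their TCF/LEF letters, the Usp6nl intron read 14.7 and 14.0 in lung controls, 35.9 and 27.1 without Vps34, 17.2 and 14.3 in spleen controls and 19.96, 17.2, 20.9 and 16.8 in spleen Vps34-deficient libraries, while the peak near Kcnh8 read 9.36 and 9.45 in lung controls, 16.2 and 18.2 without Vps34, 9.18 and 10.2 in spleen controls and 7.09, 7.71, 10.1 and 7.18 in spleen Vps34-deficient libraries. Both had the 2 lung Vps34-deficient libraries above the other 8.

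Peaks at the starts of Treg marker genes were open in all libraries, with a summed level of 141 to 168 CPM in lung controls, 130 to 149 in lung Vps34-deficient libraries and 158 to 181 in spleen. Of the 111 autosomal peaks in or within 10 kb of 7 Treg marker genes, none was a member, nor was any of the 45, 25 and 27 at B cell, CD8 and NK, and lung epithelial markers, numbers too small to set 0 apart from the 1.25% of all autosomal peaks. Of the 7 Treg genes, Foxp3 is on chromosome X and so could give no peak to this count. There was 1 member near Marco, among 40 peaks at myeloid markers (2.50%), and 1 near Tek, among 64 at endothelial and stromal markers. Marco, a scavenger receptor of macrophages, was the nearest gene of 3 members among 12 peaks, and within 50 kb of myeloid markers lay 3 members among 122 peaks (2.46%). Summed over starts, CD8 and NK markers read 40.9 to 48.9 CPM in lung controls and 52.3 to 56.5 without Vps34, myeloid markers 72.5 to 74.4 and 61.2 to 65.6, and B cell markers 20.4 to 21.1 and 17.7 to 18.5. Lung epithelial markers read 44.2 to 48.8 and 44.7 to 45.7, and endothelial and stromal markers 53.5 to 62.9 and 53.1 to 53.4. A peak lay within 1 kb of a start at 6 of 7 Treg genes (not at Trac), 4 of 8 B cell genes (not at Cd79a or Ms4a1), 6 of 14 myeloid genes (not at Lyz2, Csf1r or Adgre1), 6 of 8 CD8 and NK genes (not at Ncr1), 6 of 11 epithelial genes (not at Sftpc or Scgb1a1) and 7 of 13 endothelial and stromal genes. The CD8 and NK sum was higher in both lung Vps34-deficient libraries than in both controls, the order of 23.7% of single autosomal peaks, and the myeloid and B cell sums were lower, the order of 22.2% of them. The endothelial and stromal sums of 1 control and 1 Vps34-deficient library nearly met, at 53.48 and 53.44 CPM. The part of these sums in the members' values was not tested.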

How the data were processed

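Tregs were sorted from spleen and lung, and ATAC-seq reads were, per the study's methods, trimmed, aligned with BWA, freed of duplicates (Picard 1.65 in the submitters' processing notes), shifted for Tn5 and limited to nucleosome-free fragments. The authors called peaks per sample with MACS2 (2.1.0.20150603), kept those found in at least 50% of replicates and merged them. The table deposited by the authors gives raw read counts for each peak in each library. An older mouse build is named in the methods, but the notes list mm10, and 53.2% of 39599 protein-coding transcript starts of GRCm38 lay in a peak, against 2.82% and 2.85% after shifts, so GRCm38 was used with GENCODE M21. Between 91.5% and 96.5% of counts were even. Counting both mates of a read pair would give this, but the methods do not state it. In that case counting error is larger than the counts imply. The study counts replicates as mice, and the chromosome Y signal differed between replicates (67.6 and 12.8 CPM in lung controls, 21.4 and 63.4 in lung Vps34-deficient libraries). In spleen it was 56.9 and 7.03 CPM in controls and 9.88, 64.8, 7.67 and 58.2 in Vps34-deficient libraries. Replicates 1 and 2 thus had the same order in both tissues. Whether lung and spleen came from the same mice was not tested, and the main fit took all libraries as independent.

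CPM used library totals over all peaks. Features, motifs (exact letters, both strands) and distances were computed with Python 3.11.15. edgeR 4.0.16 in R 4.3.3 (filterByExpr, TMM, quasi-likelihood, 4 groups, Benjamini-Hochberg adjustment) was run on all peaks after being tested on simulated data, with DESeq2 1.42.0 as an alternative. Spleen groups follow the labels (2 control, 4 Vps34-deficient), whereas the study's text has 4 and 2. The members and gene lists were chosen with earlier results of these data known. Named peaks were the 8 highest in lung Vps34-deficient libraries, the 8 with the largest gap between the lower of these and the higher lung control (0.5 CPM added to each), all members nearest to 6 genes (Pik3r1, with 7 members, and of 13 genes tied at 4 the 5 with the highest member), and up to 2 members per gene list.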

Additional observations from a re-analysis of the deposited data

Results flagged for a closer look

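In the group of 4 spleen Vps34-deficient libraries, the gap of 1 library to the others was large for its range at 3 of 59 named peaks and for the median over all members. Chance gives this at about 1 in 20 groups, and 60 groups were looked at. At the Pik3r1 peak 24.8 kb inside the gene, Vps34-deficient replicate 1 read 1.81 CPM, below the other 3, and at the Pik3r1 peak 376 kb upstream replicate 2 read 7.83 CPM, below the other 3. At the Tusc3 peak 113 kb from the start, replicate 1 read 6.40 CPM, above the other 3. The median over members was 4.24 CPM in replicate 3, against 4.02 to 4.04 in the others.

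By the labels, every spleen Vps34-deficient library lay below both spleen controls at 12 members, opposite to the order in lung. At 91 members every one lay above both. Of the 54883 autosomal peaks whose spleen ratio met the band, 5.92% and 3.61% did so. The study's text gives other numbers of spleen libraries per genotype. With the spleen genotypes exchanged, the 91 and not the 12 would be opposite to lung. The 12 had a median spleen ratio of 0.849, inside the band of the rule. The highest of them, a Ryr2 intron, read 10.6 and 11.1 CPM in lung controls, 20.1 and 18.9 without Vps34, 12.1 and 13.0 in spleen controls and 10.4, 9.36, 11.9 and 10.6 in spleen Vps34-deficient libraries. This difference between tissues was not tested apart from the interaction fit, which called no member.

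The rule was limited to autosomes. Among the 2753 peaks of chromosome X, 35 met its conditions (1.27%). The highest, 0.113 kb from a start of Dach2, read 24.0 and 24.4 CPM in lung controls and 39.1 and 45.7 without Vps34.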

How the results depend on the processing

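The number of peaks found moved with the lung ratio, the lung level and the width of the spleen band. From 1180 it became 2464 with a lung ratio of at least 1.5 and 543 with at least 2, 1939 with a lung mean of at least 2 CPM and 525 with at least 5, 555 with a spleen ratio between 0.9 and its inverse, 3139 with no condition on spleen and 697, of which 501 were members, after adding 1 CPM to the means. With TMM library sizes it was 1115, of which 1022 were members. Leaving out 1 library gave 1131 to 2370 peaks. The highest numbers came without lung control replicate 1 (2370, with 934 of the members) and without lung Vps34-deficient replicate 1 (2004, with 876). In all, 134 members met the rule without each library in turn.

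The 321 members called higher in lung became 567 at an adjusted p below 0.1, 62 with the replicate number as a block and 28 in a fit of lung libraries alone, while the higher calls over all peaks went from 1188 to 2517, 229 and 139. Leaving out a library gave 103 members (of 469 calls, without lung control replicate 2) to 483 (of 5038, without lung control replicate 1), with 133 (of 540) and 199 (of 985) without lung Vps34-deficient replicates 1 and 2. Control and Vps34-deficient libraries of the same tissue and number did not deviate together. Their correlations of deviations were -0.098 in lung and -0.055 and -0.045 in spleen. Pairing of lung with spleen libraries by mouse was not tested. The interaction called 0 members in every fit, the replicate block included, except 1 without lung control replicate 1. Over 59 named peaks and 5 alternatives each, the log2 lung ratio with 0.5 CPM added to each mean, which lowers it at weak peaks, stayed between 0.22 and 2.34. Its direction was fixed by the rule wherever a lung library was left out, as both Vps34-deficient libraries had to exceed both controls. Motif shares moved with the window, for AP-1 from 6.53% in 200 bases (9.95% of all autosomal peaks) to 15.3% in whole peaks (16.1%), where the members' share was closer to that of all peaks. Within 2 kb of a start lay 8.14% of members and 19.2% of all autosomal peaks. A count of 24 to 58 reads per member and 2 libraries per lung group limit the precision of single peaks.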
